A study of Mus musculus with 30 samples.

Results

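The genes described here encode components and receptors of the complement system, in mouse tumours sampled around a dose of oxaliplatin. Of 9 listed genes (C1qa, C1qb, C1qc, C3, C4b, Cfb, Cfp, C3ar1 and C5ar1), 8 were found by symbol among the 19938 genes measured, each on 1 row of the array table, and C3 was not analysed here. The members were listed by name and not chosen on a measured value of a single comparison, but the list was drawn up with earlier results of these data in view.

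Tumours of EL4 cells, a T cell lymphoma line, were grown under the skin of mice labelled WT. The labels name no strain, and the tumours hold host cells as well as lymphoma cells. The 30 arrays form 6 groups of 5. Mice labelled ABX had received a cocktail of antibiotics for 3 weeks before the cells were injected, and mice labelled H2O had not. After 7 days every mouse received the platinum-based chemotherapy oxaliplatin at 10 mg per kg, and tumours were taken 0, 6 or 18 h later, so each time has an ABX and an H2O group. The study asked how antibiotics affect the tumour's gene expression before and soon after chemotherapy. No 6 or 18 h tumours without the drug were analysed here, so an effect of oxaliplatin cannot be told apart from other change with time.

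Complement is a set of plasma proteins that cut and bind one another in a cascade and so tag microbes, immune complexes and dying cells for uptake. C1q recognises antibody or altered cell surfaces and starts the classical pathway, in which C4 is cut next. Factor B and properdin build and hold the alternative pathway's convertase. The small fragments C3a and C5a signal through C3aR and C5aR1, receptors of myeloid cells. Liver makes most of the circulating proteins, whereas C1q and properdin come largely from myeloid cells, and C1q is a widely used mark of tumour macrophages.

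The 3 C1q chain genes lie next to one another on chromosome 4 in the mouse RefSeq annotation, with 0 other protein-coding genes between C1qb, C1qc and C1qa. C4b and Cfb lie on chromosome 17 with 5 protein-coding genes between them, and C3ar1, C5ar1 and Cfp lie alone among the members on chromosomes 6, 7 and X. Start-site windows of 300 bases (250 before and 50 after the annotated gene start) were found for 5 of the 8 members in the RefSeq set of build GRCm38.p6. All windows found for the members are shown. These 5 genes are also those that passed the test of antibiotics against water over all times, but the windows were not chosen by that test. Capitals mark GAGGAA, the core bound by PU.1, a transcription factor of myeloid cells, on either strand. All 5 windows are on the minus strand and are written 5′ to 3′ along the gene.
C1qb (chr4:136886151-136886450): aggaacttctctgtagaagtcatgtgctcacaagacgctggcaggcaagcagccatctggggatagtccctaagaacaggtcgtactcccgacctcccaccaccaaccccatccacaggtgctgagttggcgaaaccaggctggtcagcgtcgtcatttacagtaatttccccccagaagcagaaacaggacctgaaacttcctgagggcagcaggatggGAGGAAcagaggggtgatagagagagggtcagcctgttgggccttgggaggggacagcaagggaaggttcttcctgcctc
C1qc (chr4:136892865-136893164): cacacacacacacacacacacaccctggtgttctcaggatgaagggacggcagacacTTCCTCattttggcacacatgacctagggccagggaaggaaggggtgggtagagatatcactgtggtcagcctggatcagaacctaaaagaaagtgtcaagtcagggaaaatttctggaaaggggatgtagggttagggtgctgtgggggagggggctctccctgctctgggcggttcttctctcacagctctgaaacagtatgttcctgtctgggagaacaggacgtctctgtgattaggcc
Cfp (chrX:20931506-20931805): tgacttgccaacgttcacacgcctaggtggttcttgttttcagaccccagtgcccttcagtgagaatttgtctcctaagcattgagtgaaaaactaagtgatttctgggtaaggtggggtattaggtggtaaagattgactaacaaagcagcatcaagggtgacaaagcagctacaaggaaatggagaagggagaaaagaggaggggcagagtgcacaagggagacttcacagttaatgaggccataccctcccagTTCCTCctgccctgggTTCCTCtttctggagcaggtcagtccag
C3ar1 (chr6:122856108-122856407): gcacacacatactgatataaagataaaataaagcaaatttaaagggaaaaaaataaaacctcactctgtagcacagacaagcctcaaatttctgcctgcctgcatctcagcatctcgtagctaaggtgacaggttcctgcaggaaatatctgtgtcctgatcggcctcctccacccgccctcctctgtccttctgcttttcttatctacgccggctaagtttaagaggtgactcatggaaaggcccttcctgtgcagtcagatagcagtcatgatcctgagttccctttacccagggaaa
C5ar1 (chr7:16259289-16259588): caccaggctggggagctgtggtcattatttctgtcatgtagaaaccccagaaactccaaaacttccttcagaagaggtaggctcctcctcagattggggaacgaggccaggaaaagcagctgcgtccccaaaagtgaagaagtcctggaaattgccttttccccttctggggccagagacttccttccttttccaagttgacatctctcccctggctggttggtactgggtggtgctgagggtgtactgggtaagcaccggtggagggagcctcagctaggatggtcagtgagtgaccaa

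The C1qb window held 1 match, which begins 30 bases before the gene start, and the C1qc window 1, which begins 193 bases before it. The Cfp window held 2, whose first bases are bases 7 and 23 of the gene. No match lay in the C3ar1 and C5ar1 windows. Of all 32851 windows in the set 28.3% held at least 1 such match. A further 3 motifs were searched on both strands: the interferon response element (3.44% of all windows), the gamma activated site TTCNNNGAA (8.3%) and the NF-kB site (8.46%). Of these the C1qc window held 1 NF-kB match and the other windows held none. GAGGAA and the gamma activated site both hold GAA, so their matches can overlap. The motifs were chosen with the expression results known.

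Values are log2 expression as deposited, and fold changes are differences of group means on that scale with the SE of a linear model fitted across all genes (limma). A gene passed at a Benjamini-Hochberg adjusted p under 0.05 over the 19938 genes. Array medians lay between 7.253 and 7.365. The T cell genes Cd3e and Thy1, which EL4 cells carry, averaged 11.29 and 11.93 over the 30 arrays, and the hepatocyte gene Alb averaged 5.91. Detection calls were not used here, so none of these genes can be called absent. Antibiotic 6 h array 5 was high in skeletal muscle markers (list mean 1.51 above that of the 30 arrays), and antibiotic 6 h array 1 and water 6 h array 1 were high in keratinocyte markers (2.15 and 2.30). Counts of complement members called or not overlapping at 6 h, and called over all times, are also given without these 3, a choice made after seeing the data. Nothing in the labels states that the arrays of a group came from different mice, so the tests rest on the spread between arrays, which may in part be technical.

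Most of the 8 members were lower in tumours of antibiotic mice than of water mice. This did not hold for most of the further complement genes described below, which include dimmer genes. Averaged over the 3 times, 5 of the 8 members passed as lower and 0 as higher, and all 8 had a fold change below 0. The 5 were the C1q chain genes C1qb and C1qc, the properdin gene Cfp, and the receptor genes C3ar1 and C5ar1. Of all genes 4.07% passed as lower and 2.57% as higher in this comparison. The median log2 fold change of the 8 members was -0.32, against 0.004 over all genes. The members varied together between arrays of the same group (Pearson's r 0.704 to 0.923 between pairs). Counts of members, here and below, are therefore not counts of independent genes. In RNA of whole tumours, fewer cells of a type and less RNA per cell cannot be told apart.

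**Figure D1:**
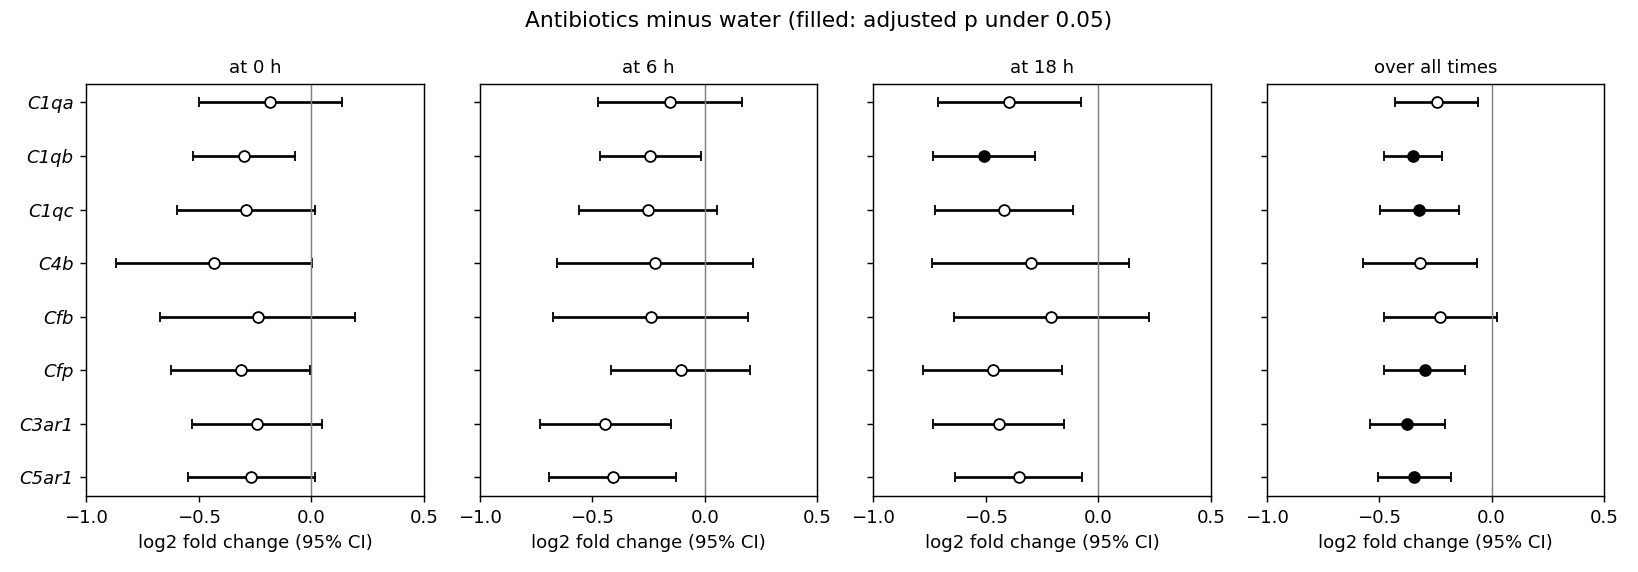
Log2 fold change of each complement gene, antibiotics minus water, at 0, 6 and 18 h and over all times (points), with the 95% confidence interval of the limma fit (bars). Filled points passed at an adjusted p under 0.05: C1qb at 18 h, and C1qb, C1qc, Cfp, C3ar1 and C5ar1 over all times. Every point lies below 0.

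C1qb encodes the B chain of C1q. At 18 h its log2 values were 10.65, 11.06, 10.81, 10.94 and 10.62 in antibiotic mice, against 11.20, 11.34, 11.26, 11.50 and 11.31 in water mice. At 6 h they were 10.73, 10.60, 10.80, 10.82 and 11.30 in antibiotic mice, against 11.17, 10.93, 11.24, 10.85 and 11.26 in water mice. At 0 h they were 11.04, 10.81, 10.86, 11.10 and 10.72 in antibiotic mice, against 11.28, 11.08, 11.27, 11.03 and 11.36 in water mice. The groups overlapped at 0 and 6 h, and at 18 h every antibiotic array lay below every water array. C1qb had a log2 fold change of -0.35 ± 0.063 (SE) over all times, which is 0.784 times the water level (limma adjusted p = 0.000763). It was the only member to pass at a single time, at 18 h, with -0.51 ± 0.11 (adjusted p = 0.00476). At 0 and 6 h it stood at -0.30 ± 0.11 and -0.24 ± 0.11 and did not pass (limma adjusted p = 0.539 and 0.214), although without antibiotic 6 h array 5 the 6 h value was -0.35 and passed (adjusted p = 0.0305).

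C1qc encodes the C chain, which pairs with the others in the collagen-like stalks of C1q. Its values at 18 h were 8.88, 9.43, 9.01, 9.25 and 8.97 in antibiotic mice, against 9.41, 9.41, 9.33, 9.87 and 9.63 in water mice. At 6 h they were 9.09, 8.79, 9.18, 8.93 and 9.71 in antibiotic mice and 9.52, 9.26, 9.61, 9.03 and 9.55 in water mice. At 0 h they were 9.36, 9.10, 9.20, 9.51 and 9.09 in antibiotic mice and 9.39, 9.35, 9.76, 9.35 and 9.84 in water mice. The groups overlapped at each time, and the highest antibiotic array of the 15 was 6 h array 5. Over all times C1qc had a log2 fold change of -0.32 ± 0.086 (SE), or 0.8 times the water level (limma adjusted p = 0.0207). At single times it did not pass, with -0.29 ± 0.15 at 0 h, -0.25 ± 0.15 at 6 h and -0.42 ± 0.15 at 18 h (limma adjusted p = 0.789, 0.344 and 0.0835). Without antibiotic 18 h array 2, the highest of its group, the 18 h value was -0.50 and passed (adjusted p = 0.0485).

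C1qa, the gene of the A chain, had the same order of group means as C1qb but a wider overlap. It averaged 9.10 ± 0.22, 9.03 ± 0.33 and 8.98 ± 0.24 at 0, 6 and 18 h in antibiotic mice, against 9.28 ± 0.32, 9.18 ± 0.22 and 9.38 ± 0.22 in water mice (SD, n = 5 each). Over all times the fold change was -0.24 ± 0.090 (95% interval -0.43 to -0.06) and did not pass (limma adjusted p = 0.106). Without antibiotic 6 h array 5 it was -0.29 and passed (adjusted p = 0.0254). That array had the highest C1qa, C1qb and C1qc values of all 15 antibiotic arrays.

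The receptor genes C3ar1 and C5ar1 were lower in antibiotic mice over all times. C3ar1 encodes the receptor of C3a, which recruits and activates myeloid cells. Its values at 18 h were 10.21, 10.69, 10.45, 10.61 and 10.61 in antibiotic mice, against 10.77, 10.74, 10.83, 11.03 and 11.41 in water mice. At 6 h they were 10.48, 10.32, 10.36, 10.35 and 10.94 in antibiotic mice and 10.86, 10.87, 11.07, 10.72 and 11.14 in water mice. At 0 h they were 10.80, 10.23, 10.36, 10.78 and 10.30 in antibiotic mice and 10.66, 10.70, 10.73, 10.50 and 11.10 in water mice. The 18 h groups did not overlap, and at 6 h only antibiotic array 5 reached into the water range. C3ar1 had the lowest fold change of the members over all times, -0.37 ± 0.082 (SE), or 0.771 times the water level (limma adjusted p = 0.00428). By time it stood at -0.24 ± 0.14, -0.44 ± 0.14 and -0.44 ± 0.14 at 0, 6 and 18 h (limma adjusted p = 0.861, 0.0751 and 0.0514). It passed at 6 h without antibiotic 6 h array 5 (-0.55, adjusted p = 0.0168), and at 18 h without water 18 h array 2 (-0.50, adjusted p = 0.0407) or antibiotic 18 h array 2 (-0.49, adjusted p = 0.0497).

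C5ar1 encodes the receptor of C5a, a strong chemoattractant of neutrophils and monocytes. At 18 h it measured 7.55, 8.08, 7.84, 7.99 and 8.06 in antibiotic mice, against 8.18, 8.15, 8.16, 8.27 and 8.53 in water mice. At 6 h it measured 7.74, 7.50, 7.44, 7.64 and 8.45 in antibiotic mice and 8.14, 8.03, 8.16, 8.09 and 8.39 in water mice. At 0 h it measured 8.21, 7.90, 7.89, 8.13 and 7.73 in antibiotic mice and 8.30, 8.10, 8.19, 8.13 and 8.46 in water mice. The 18 h groups did not overlap. At 6 h antibiotic arrays 1 to 4 lay below all water arrays, and array 5 lay above all of them. The fold change over all times was -0.34 ± 0.080 (SE), or 0.788 times the water level (limma adjusted p = 0.00725). By time it was -0.27 ± 0.14, -0.41 ± 0.14 and -0.35 ± 0.14 at 0, 6 and 18 h and did not pass (limma adjusted p = 0.798, 0.0899 and 0.12). Without antibiotic 6 h array 5 the 6 h value was -0.58 and passed (adjusted p = 0.00261).

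**Figure D2:**
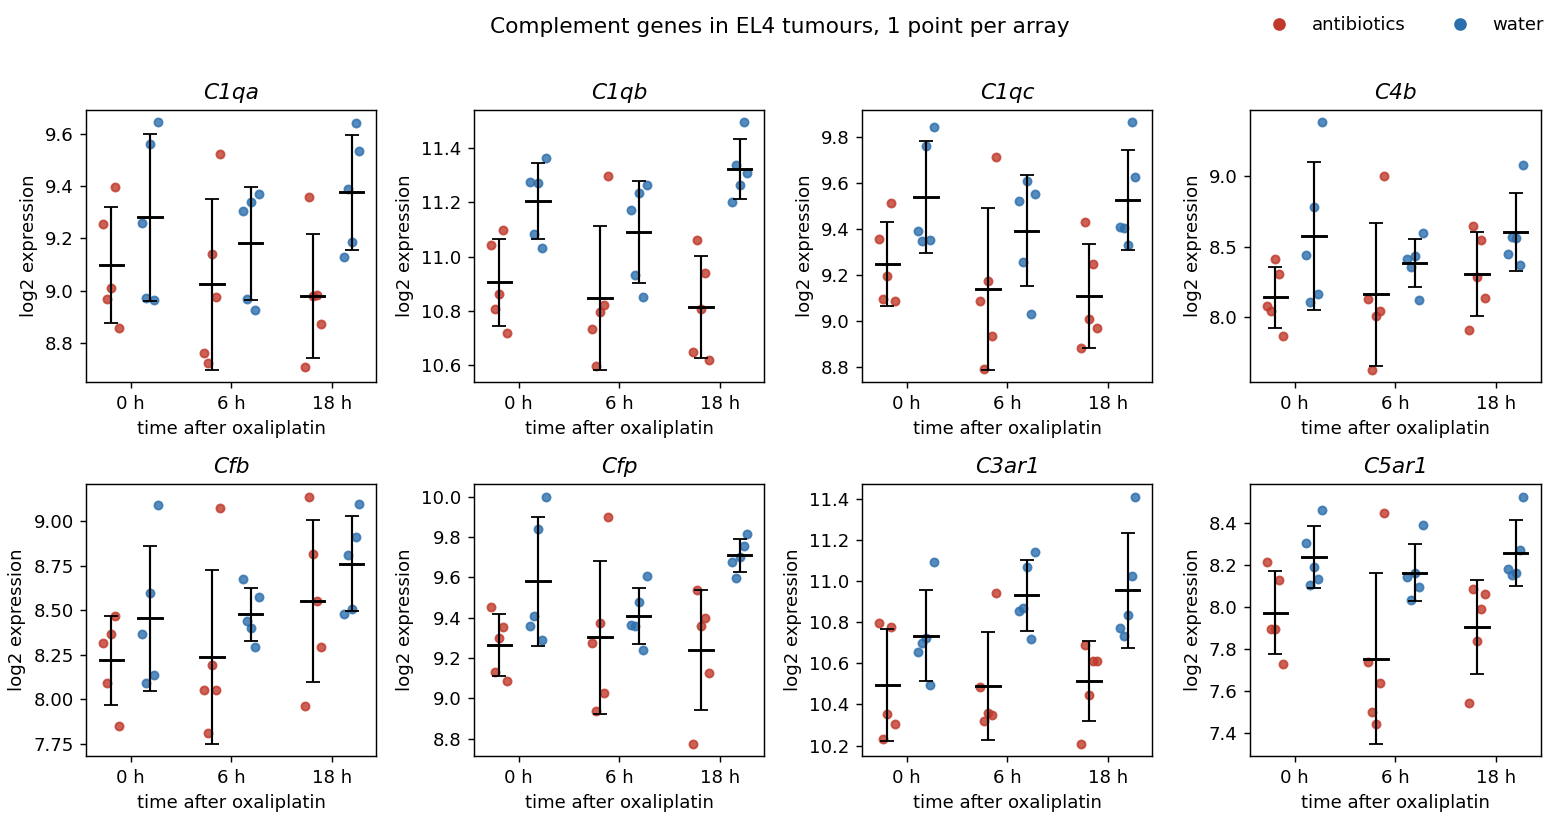
Log2 expression of the 8 complement genes by time after oxaliplatin, with antibiotic arrays in red and water arrays in blue (1 point per array, bars are the mean ± SD, n = 5). C1qb, Cfp, C3ar1 and C5ar1 do not overlap between the groups at 18 h, and antibiotic 6 h array 5 stands above the other 4 arrays of its group.

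Properdin, the product of Cfp, holds the alternative convertase together and is made by leukocytes. At 18 h Cfp measured 8.77, 9.54, 9.36, 9.40 and 9.13 in antibiotic mice, against 9.68, 9.60, 9.70, 9.76 and 9.81 in water mice. At 6 h it measured 9.27, 8.94, 9.37, 9.03 and 9.90 in antibiotic mice and 9.36, 9.36, 9.48, 9.24 and 9.61 in water mice. At 0 h it measured 9.45, 9.13, 9.30, 9.36 and 9.08 in antibiotic mice and 9.36, 9.41, 9.84, 9.29 and 10.00 in water mice. The 18 h groups did not overlap, and the water arrays lay close together there (SD 0.08). Over all times the fold change was -0.30 ± 0.087 (SE), or 0.814 times the water level (limma adjusted p = 0.0363). Of the 5 calls only this one was lost under any alternative run: leaving out any 1 of 12 arrays ended it, with values from -0.29 to -0.26 and adjusted p from 0.0526 to 0.0684. Those arrays were water 0 h arrays 3 and 5, antibiotic 0 h arrays 2 and 5, water 6 h arrays 3 and 5, antibiotic 6 h arrays 1, 2 and 4, water 18 h arrays 4 and 5 and antibiotic 18 h array 1. By time it stood at -0.31 ± 0.15, -0.11 ± 0.15 and -0.47 ± 0.15 at 0, 6 and 18 h (limma adjusted p = 0.741, 0.704 and 0.0525), and it passed at 18 h without antibiotic 18 h array 2 (-0.54, adjusted p = 0.0354).

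Cfb and C4b, which encode parts of the alternative and the classical convertase, did not pass. Cfb, which gives the protease of the alternative convertase, averaged 8.22 ± 0.25, 8.24 ± 0.49 and 8.55 ± 0.46 at 0, 6 and 18 h in antibiotic mice, against 8.46 ± 0.41, 8.48 ± 0.15 and 8.76 ± 0.27 in water mice (SD, n = 5 each). Its fold change over all times was -0.23 ± 0.12 (95% interval -0.48 to 0.02, limma adjusted p = 0.326). C4b, whose product binds to surfaces and helps to form the classical convertase, averaged 8.14 ± 0.22, 8.16 ± 0.51 and 8.31 ± 0.30 at 0, 6 and 18 h in antibiotic mice, against 8.58 ± 0.52, 8.39 ± 0.17 and 8.61 ± 0.28 in water mice (SD, n = 5 each). Its fold change over all times was -0.32 ± 0.12 (95% interval -0.57 to -0.07, limma adjusted p = 0.132), and without antibiotic 6 h array 5 it was -0.39 and passed (adjusted p = 0.0183). Single arrays ranged from 7.63 to 9.00 for C4b in antibiotic mice at 6 h. C4b has a near-identical neighbour, C4a, and an array may not separate them; the row of C4a had a fold change of -0.06 ± 0.047 over all times.

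At single times few members passed. At 18 h 1 of 8 passed as lower, C1qb, where 3.34% of all genes passed as lower and 4.52% as higher. Before adjustment 6 of 8 had a p under 0.05. Every antibiotic array lay below every water array for 4 of the 8 members at 18 h (C1qb, Cfp, C3ar1 and C5ar1), which was so for 2.46% of all genes, and for 0 of 8 at 0 h and at 6 h, where it was so for 0.762% and 3.42%. The 6 h count of members without overlap rested on antibiotic 6 h array 5: without it 4 of 8 did not overlap (C1qb, C3ar1, C5ar1 and Cfb, against 6.93% of all genes). Without the 3 arrays high in skin or muscle markers 5 of 8 did not (these and C4b, against 12.1% of all genes). At 18 h 6 of 8 did not overlap without antibiotic 18 h array 2 (C1qa and C1qc in addition, against 3.47% of all genes). The number of members that passed by limma at 18 h was 4 without antibiotic 18 h array 2 (C1qb, C1qc, C3ar1 and Cfp) and 2 without water 18 h array 2. At 6 h 0 of 8 passed by limma or by a linear model without moderation, where 2.64% of all genes passed as lower and 1.13% as higher. The unadjusted p was under 0.05 for 3 of them. Without antibiotic 6 h array 5 the number that passed by limma at 6 h was 3, and without the 3 arrays high in skin or muscle markers it was 2. At 0 h 0 of 8 passed by either model, where 0.0903% of all genes passed in either direction, and the unadjusted p was under 0.05 for C1qb and Cfp, 2 of the 8. All 8 fold changes were below 0 at each time, with medians of -0.28, -0.24 and -0.41 at 0, 6 and 18 h. Over all times the number that passed was 6 without the 3 arrays high in skin or muscle markers and 5 from the 0 and 18 h groups alone.

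Change with time after oxaliplatin was not detected for these genes. Between 0 and 6 h and between 0 and 18 h, 0 of 8 members passed in antibiotic mice and 0 of 8 in water mice, by limma or by an unmoderated linear model, and no member reached even an unadjusted p of 0.05 (0 of 8 in each). Over all genes 0% and 1.22% passed at 6 and 18 h in antibiotic mice and 1.11% and 14.1% in water mice, in either direction. Cfb had the most positive 18 h values, 0.33 ± 0.21 in antibiotic mice and 0.30 ± 0.21 in water mice, with 95% intervals of -0.10 to 0.77 and -0.13 to 0.74. C3ar1 stood at 0.02 ± 0.14 in antibiotic mice and 0.22 ± 0.14 in water mice at 18 h, and C1qb at -0.09 ± 0.11 and 0.12 ± 0.11. Over the 8 members the median 18 h change was -0.047 in antibiotic mice and 0.106 in water mice, against 0.012 over all genes in each.

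**Figure D3:**
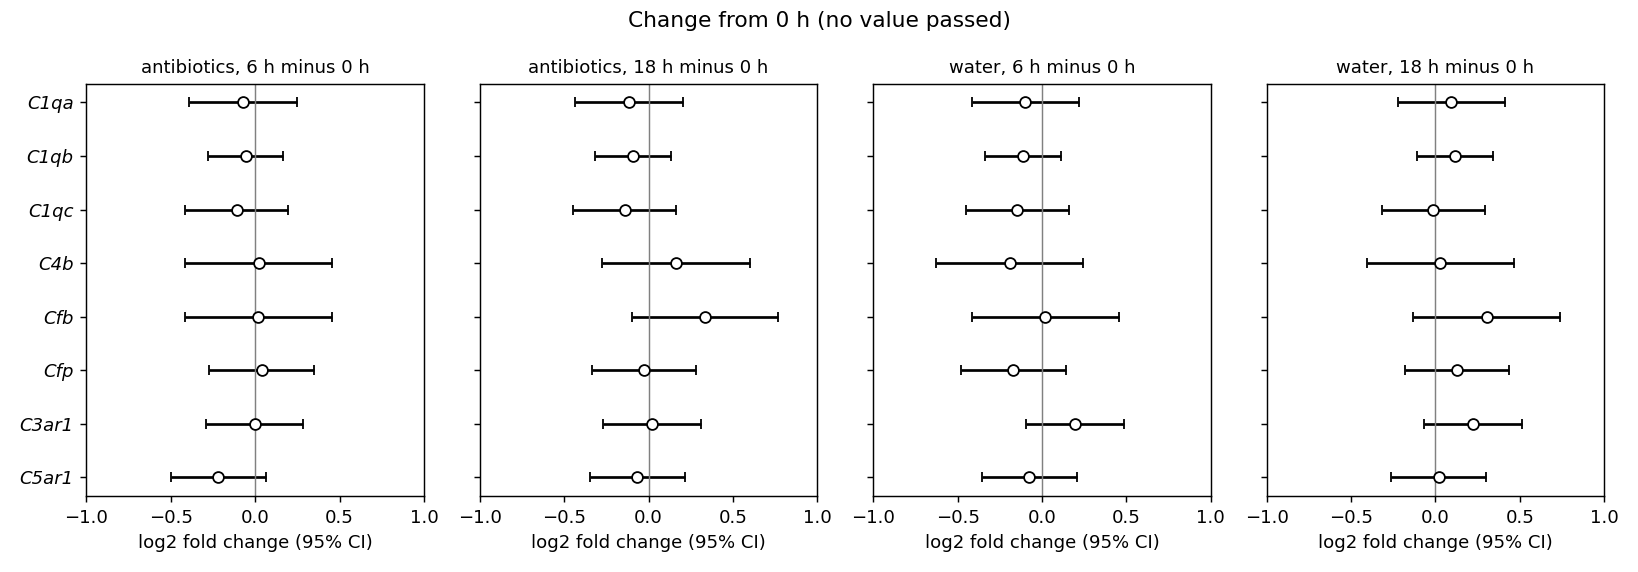
Log2 fold change from 0 h for each complement gene in antibiotic and in water mice at 6 and 18 h (points), with the 95% confidence interval of the limma fit (bars). No point passed, and every interval includes 0.

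Between 6 and 18 h 0 of 8 members passed in antibiotic mice and 0 of 8 in water mice by limma or by the unmoderated model, where 2.12% and 9.58% of all genes passed in either direction. In water mice all 8 fold changes were above 0 (median 0.207) and 1 had an unadjusted p under 0.05, that of C1qb (0.23 ± 0.11). In antibiotic mice 4 were above 0 (median -0.004), and 0 had an unadjusted p under 0.05. C1qb passed in water mice with array weights (0.28, adjusted p = 0.0463), and Cfp passed when only these 2 groups were fitted (0.30, adjusted p = 0.0225).

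A difference in time course between the kinds of mice was tested as an interaction. At 6 h and at 18 h 0 of 8 members passed by limma or by the unmoderated model, and before adjustment 0 had a p under 0.05, where 0% and 0.105% of all genes passed in either direction. The 18 h interaction was -0.21 ± 0.15 for C1qb (95% interval -0.53 to 0.11) and -0.20 ± 0.2 for C3ar1 (-0.61 to 0.21). For Cfp it was -0.16 ± 0.21 (-0.59 to 0.28). Intervals of this width do not show that the gap between antibiotic and water mice was equal at 0 and 18 h. For 7 of the 8 members the 3 antibiotic group means were the 3 lowest of the 6, and the exception was Cfb, whose antibiotic 18 h mean lay above its water means at 0 and 6 h. When the 6 group means of each gene were put in order, 32 of the 40 gaps between neighbours were under the smaller of the 2 SDs. The exceptions included C1qb, C3ar1 and C5ar1 at the step between the highest antibiotic mean and the lowest water mean. The 6 means of a gene spanned 0.395 (C1qa) to 0.543 (Cfb), and SDs within groups ran up to 0.523.

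Part of the macrophage markers were also lower in antibiotic mice. Over all times 4.07% of all genes passed as lower and 2.57% as higher. Of 16 monocyte and macrophage markers tested, 6 passed as lower in antibiotic mice over all times and 0 as higher (median -0.281), among them Cd68 (-0.39 ± 0.059), Fcer1g (-0.28 ± 0.054), Ms4a7 (-0.37 ± 0.072) and Mertk (-0.35 ± 0.092). Of 10 markers of resident or tissue macrophages 4 passed as lower (median -0.201), namely Gpnmb (-0.45 ± 0.093), Apoe (-0.20 ± 0.055), Folr2 (-0.43 ± 0.11) and Trem2 (-0.16 ± 0.039). Per array, the mean of the first list relative to all arrays ran from -0.35 to 0.13, -0.35 to 0.33 and -0.48 to 0.17 at 0, 6 and 18 h in antibiotic mice, against -0.15 to 0.35, -0.12 to 0.19 and 0.14 to 0.48 in water mice. After that list mean was subtracted on each array, C1qb averaged -0.004 ± 0.074, -0.008 ± 0.107 and -0.127 ± 0.154 in antibiotic mice at 0, 6 and 18 h, against 0.122 ± 0.102, 0.017 ± 0.086 and 0.00 ± 0.116 in water mice (SD, n = 5 each). Over the 8 members, the antibiotic mean of this difference lay below the water mean for 8 at 0 h, 6 at 6 h (not C1qa and Cfp) and 5 at 18 h (not C5ar1, C4b and Cfb). For C3ar1 at 6 h the difference ran from -0.069 to 0.001 in antibiotic mice, against 0.069 to 0.31 in water mice, the only member and time without overlap. After this subtraction the shares of all genes with a lower antibiotic mean, or without overlap, were not computed. These counts therefore have no background to be read against. Some gaps were small beside the spread, as for C1qa at 0 h (0.062 ± 0.05 in antibiotic mice and 0.071 ± 0.152 in water mice). For Cfb at 18 h the difference averaged 0.191 ± 0.255 in antibiotic mice and 0.02 ± 0.14 in water mice, and for C1qa -0.087 ± 0.107 and -0.072 ± 0.106. The part that macrophage content has in the complement values was not tested.

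**Figure D4:**
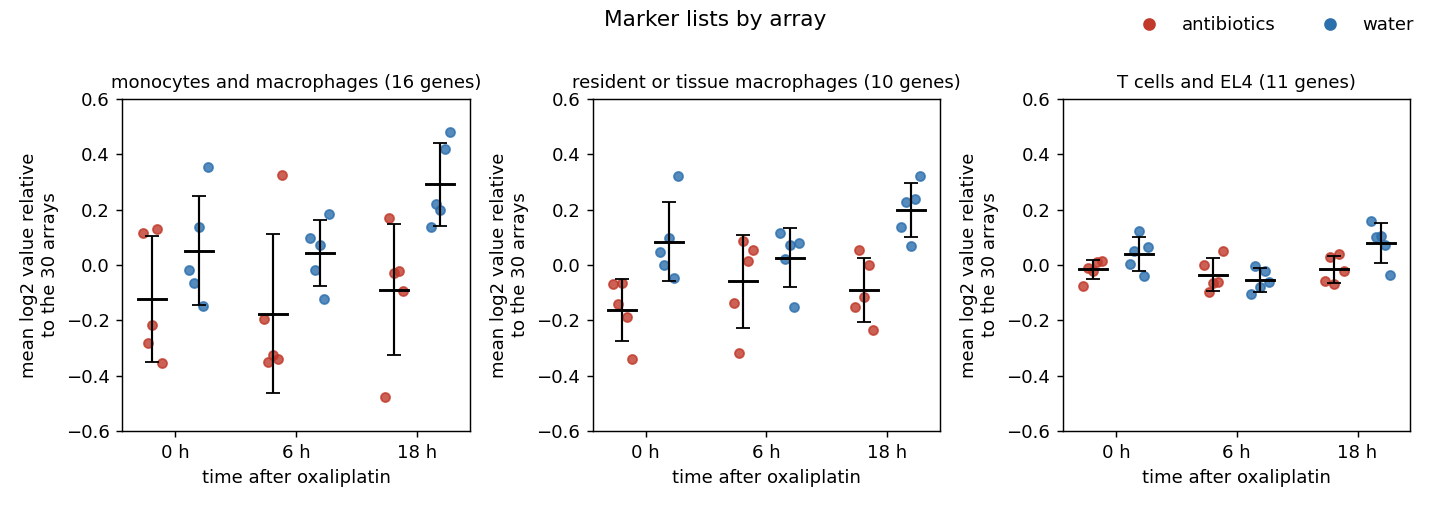
Mean log2 value of 3 marker lists on each array, relative to the mean of each gene over the 30 arrays (red, antibiotics; blue, water; bars are the mean ± SD, n = 5). At 18 h the monocyte and macrophage list ran from -0.48 to 0.17 in antibiotic mice, against 0.14 to 0.48 in water mice, while the T cell and EL4 list ran from -0.10 to 0.16 over all 30 arrays.

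In the same comparison the markers that passed in other lists numbered 3 lower and 1 higher of 11 T cell and EL4 markers (median -0.037), 1 lower of 11 fibroblast markers (median -0.138), 1 lower of 7 mast cell markers (-0.118) and 1 lower of 6 B and plasma cell markers (0.007). Among all genes the shares were 4.07% lower and 2.57% higher. None passed of 13 neutrophil, 9 dendritic cell, 6 NK cell, 9 endothelial, 6 adipocyte, 7 keratinocyte, 8 muscle and 7 hepatocyte markers. Some of these were dim, such as Ncr1 (5.64), Ngp (5.32), Clec9a (5.26) and Alb (5.91), where a change may not show. Others were not, such as Acta1 (10.86) and Cdh5 (10.04). The 16 monocyte and macrophage markers averaged 6.88 (Cx3cr1) to 11.53 (Lyz2). In the response lists, 0 of 8 interferon gamma, 0 of 8 type I interferon and 0 of 10 acute phase and NF-kB genes passed, with medians of -0.167, -0.202 and -0.079.

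The complement genes varied together between arrays of the same group. After the mean of each group was subtracted, Pearson's r between members over the 30 arrays ran from 0.704 (C1qa with C5ar1) to 0.923 (C1qa with C1qc), with a median of 0.784 over 28 pairs. Without antibiotic 6 h array 5 it ran from 0.592 to 0.905, with a median of 0.717. Among the members the 3 C1q genes were closest to one another, at 0.911 to 0.923, and C3ar1 with C5ar1 stood at 0.869. All points are arrays of whole tumours and share their cell content.

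Among all genes, those most like the C1q genes were, beside the C1q genes themselves, Ly86, which encodes a partner of a Toll-like receptor family protein (r = 0.901 with C1qa, 0.901 with C1qb and 0.913 with C1qc), and Frmd4b (0.899 with C1qa and 0.914 with C1qb). C1qc also had Naaa (0.917) and Csf1r, the receptor for the macrophage growth factor (0.904), C1qa had Sdc3 (0.890), and C1qb had Rnf130 (0.888). The receptor genes C3ar1 and C5ar1 had Itgam, the integrin chain of complement receptor type CR3, as their nearest gene (0.932 and 0.921). Next to it C3ar1 had Dpep2, Rnf130, Tyrobp and Tlr13 (0.900 to 0.883), and C5ar1 had Spi1, which encodes PU.1, Ifitm6, Gda and Pirb (0.914 to 0.902). Cfp was nearest to Sdc3 (0.946) and Csf1r (0.944), followed by Bin1, Gpr146 and Hacd4 (0.908 to 0.901). For C4b the 5 nearest were Pla1a, Folr2, Clec10a, F13a1 and Siglec1 (0.923 to 0.894), which include known macrophage genes. For Cfb they were Ddx60 (0.936), Ogn, Lifr, Ifit3 and Ncf1 (0.924 to 0.915), of which Ddx60 and Ifit3 are interferon-induced.

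**Figure D5:**
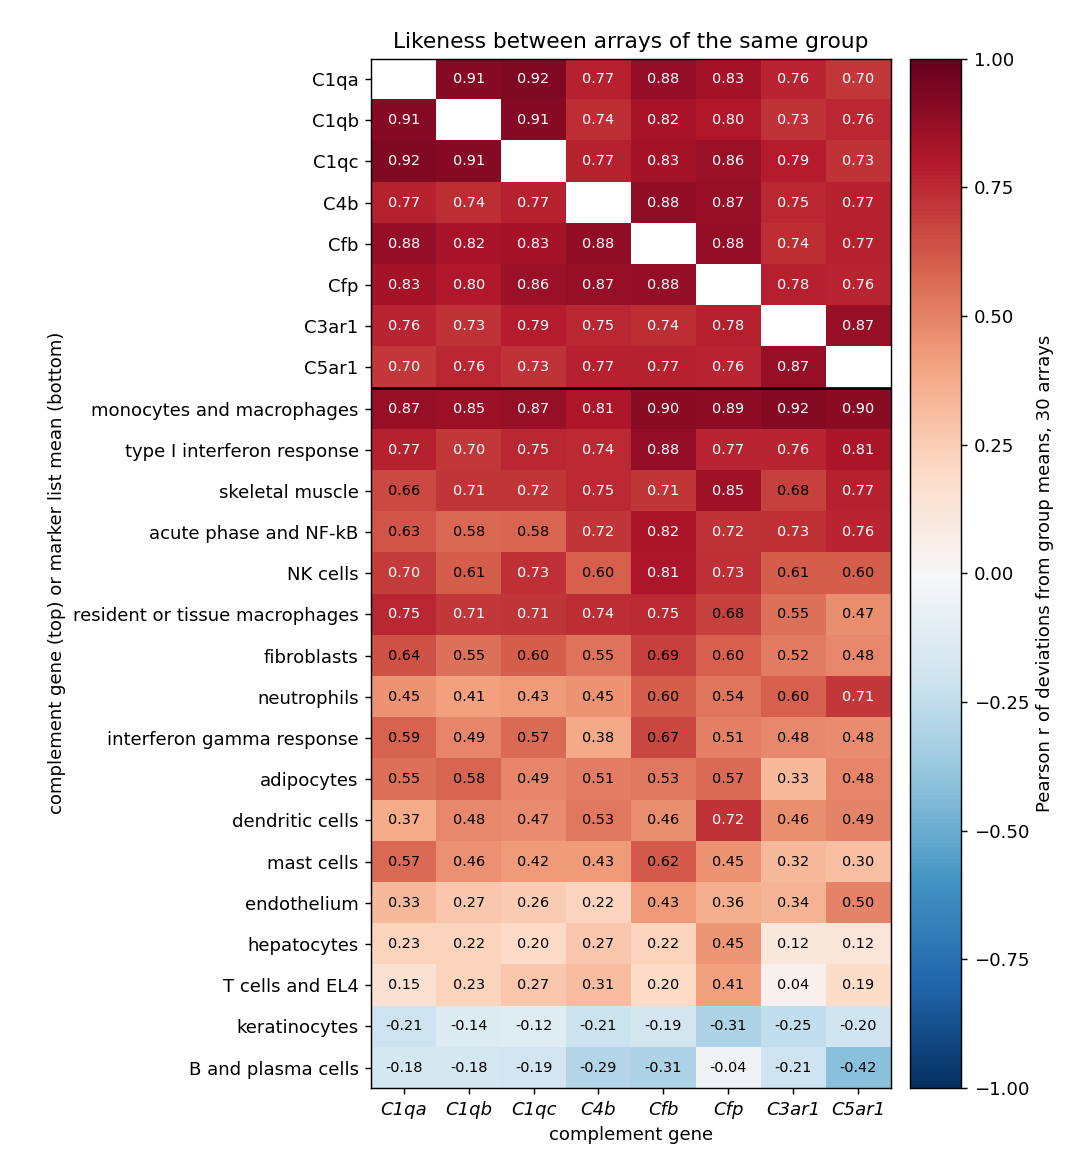
Pearson's r over the 30 arrays, after subtraction of each group's mean, between the 8 complement genes (top) and between each gene and the mean of each marker list (bottom). Monocyte and macrophage markers have the highest value for each gene with all 30 arrays (0.81 to 0.92). Keratinocyte and B cell markers lie below 0 there, but not for every gene without antibiotic 6 h array 5.

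Against list means, the monocyte and macrophage markers gave r from 0.807 (C4b) to 0.915 (C3ar1), or 0.728 to 0.897 without antibiotic 6 h array 5. Without that array C4b had a higher r with the resident macrophage list (0.762), and r with B and plasma cell markers was above 0 for 5 of 8 genes and with keratinocyte markers for 2 of 8. The type I interferon list gave 0.881 for Cfb and 0.705 to 0.815 for the others, or 0.83 and 0.564 to 0.705 without that array. Resident macrophage markers gave 0.71 to 0.754 for the C1q genes and 0.467 for C5ar1, and neutrophil markers 0.408 to 0.452 for the C1q genes and 0.71 for C5ar1. Without antibiotic 6 h array 5 the neutrophil values were 0.24 to 0.335 for the C1q genes and 0.652 for C5ar1. Skeletal muscle markers also gave high values, 0.851 for Cfp and 0.663 to 0.771 for the other 7, or 0.783 and 0.555 to 0.622 without antibiotic 6 h array 5, and their part in the complement values was not tested. Hepatocyte markers gave 0.117 to 0.445, or -0.084 to 0.373 without it. No p is attached to these values, which share arrays and cell content.

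Of 48 further complement genes listed, 43 were tested, and over all times 2 passed as lower and 2 as higher, where 4.07% of all genes passed as lower and 2.57% as higher. Their median log2 fold change was -0.01. Over the 30 arrays they averaged from 4.31 (C9) to 12.26 (Calr), and the 8 members from 8.05 (C5ar1) to 11.03 (C1qb). Several lay under 6.18, the cut for the dimmest genes, among them C9, C7 (5.53), Hc (5.96), Mbl1 (5.21) and Cr2 (5.17). At such levels a change may not show, so a lack of calls there does not show that these genes were unchanged. The 2 lower ones were Serping1, the inhibitor of C1 (-0.29 ± 0.074, limma adjusted p = 0.0167), and C5ar2, the second C5a receptor (-0.17 ± 0.037, adjusted p = 0.00425). The 2 higher ones were C8g, a chain of the terminal component C8 (0.21 ± 0.030, limma adjusted p = 6.32e-05), and C1qbp (0.08 ± 0.021, adjusted p = 0.0168), which despite its name encodes a mainly mitochondrial protein. C8g measured 8.05, 8.00, 8.06, 7.98 and 7.94 at 18 h in antibiotic mice, against 7.70, 7.86, 7.72, 7.72 and 7.74 in water mice, and these groups did not overlap, as was so for 4.73% of all genes in that direction.

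By step of the cascade, 0 of 5 classical pathway genes passed over all times, although all 5 were below 0 (median -0.162), and neither did any of 8 lectin pathway genes (median 0.023) or 8 membrane regulators (median -0.012). Of the others, 1 of 7 terminal pathway genes was higher (C8g), 1 of 7 soluble regulators was lower (Serping1), and of 8 other receptors and binding proteins 1 was higher (C1qbp) and 1 lower (C5ar2). At 18 h, of the 43 genes, Serping1 (-0.43 ± 0.13), C5ar2 (-0.23 ± 0.064) and Itgb2, the shared chain of the complement receptor integrins (-0.27 ± 0.077), were lower in antibiotic mice and C8g (0.26 ± 0.052) higher. Among all genes 3.34% passed as lower and 4.52% as higher at that time. Serping1 averaged 10.57 ± 0.32 in antibiotic mice and 11.01 ± 0.20 in water mice at 18 h (SD, n = 5 each). Itgb2 measured 10.44, 10.74, 10.63, 10.72 and 10.77 in antibiotic mice, against 11.02, 10.83, 10.98, 10.89 and 10.91 in water mice, with no overlap, as was so for 2.46% of all genes in that direction. At 6 h C1qbp (0.13 ± 0.036) was higher, where 1.13% of all genes passed as higher. Values in parentheses are log2 fold changes with their SE.

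Of the 43 other complement genes 3 rose between 0 and 18 h in water mice, where 6.18% of all genes passed as higher. They were C1ra, a protease of the C1 complex (0.41 ± 0.1), Serping1 (0.47 ± 0.13) and Cd93, a surface protein of endothelium and myeloid cells (0.33 ± 0.11). C1ra measured 6.83, 6.87, 6.90, 6.86 and 7.04 at 18 h, against 6.63, 6.29, 6.48, 6.19 and 6.87 at 0 h. The 18 h arrays of C1ra varied less (SD 0.08) than those at 0 h (SD 0.27), and the 2 groups overlapped only through 0 h array 5. Itgb2 rose between 6 and 18 h in water mice (0.31 ± 0.077), where 3.12% of all genes did, and C1qbp fell by 0.13 in antibiotic mice over that interval, where 0.888% did. Whether these genes differed from the 8 members in their change with time was not tested.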

How the data were processed

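Total tumour RNA was amplified, labelled with biotin and hybridised to Affymetrix arrays, 1 per sample, per the labels. The values are log2 expression as deposited by the authors. The submitters' processing notes name Partek 6.6 without its role, and the background correction and normalisation are not given in the sources used here. No scanner files were used. Of 28853 rows, 21775 carried 1 gene symbol, 1578 several and 5500 none in the platform's annotation, which can be old. The row with the highest mean stood for each of the 19938 genes, of which 998 had several rows. C3 was not analysed here. Groups came from the labels' treatment and time.

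Group means were fitted in 1 model with limma 3.58.1 in R 4.3.3 (24 residual and 3.63 prior degrees of freedom, no filter, two-sided), with Benjamini-Hochberg adjustment over all genes within each of 12 comparisons. On simulated data 85% of genes changed by 0.5 and 99% of those changed by 1 on the log2 scale were recovered, with 6 false calls. The changed genes were drawn at random from all genes. Median SDs within groups were 0.171 to 0.365 for the members, against 0.0799 to 0.135 over all genes, so recovery for the members was not measured. All members were named, other complement and marker genes came from written lists, and the 5 genes most alike were taken by Pearson's r. The members and lists were chosen with earlier results of these data known. Alternatives changed the normalisation, the row per gene, the filter on dim genes, the moderation, array weights, the groups fitted and the arrays kept. The number of arrays limits the precision.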

Additional observations from a re-analysis of the deposited data

Results flagged for a closer look

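Of 48 sets of 5 arrays (8 genes in 6 groups), 2 held an array far from its group by Dixon's test, which chance gives in about 1 set of 20. C3ar1 measured 10.944 on antibiotic 6 h array 5, above the other 4 arrays of its group, which lay between 10.317 and 10.483. C4b measured 9.078 on water 18 h array 5, above the other 4, which lay between 8.37 and 8.569. Antibiotic 6 h array 5 was also the highest of its group for each of the other 7 complement genes.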

How the results depend on the processing

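Over all times C1qb, C1qc, C3ar1 and C5ar1 stayed lower in antibiotic mice and past the threshold under every alternative run, and the count of members called ran from 4 to 7 when 1 array was left out (7 without antibiotic 6 h array 5). The unmoderated linear model called 4, losing Cfp (adjusted p = 0.0512). At 18 h C1qb passed under every alternative. The 18 h count of 1 became 3 after quantile normalisation, 3 without the dimmest genes (mean log2 value under 6.18), 2 with array weights, and 1 to 4 with 1 array left out. The 6 h count of 0 became 2 with array weights and 0 to 3 with 1 array left out. It was 2 without the 3 arrays high in skin or muscle markers, an alternative chosen after seeing the data, as were the 0 and 18 h groups alone. Between 6 and 18 h in water mice the count of 0 became 1 with array weights and 1 when only those groups were fitted. The cause of these shifts was not tested. No fold change past the threshold reversed. No paired analysis was possible because no sample number occurs in more than 1 group. No depth or detection call was used, so dim genes have no bound.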
